A study of Mus musculus with 4 samples.

Results

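Csf1 and Csf2 encode colony-stimulating factors that T cells can secrete to act on myeloid cells. Both genes were taken by name, 2 of the 33696 genes in the count files, as Csf1 (ENSMUSG00000014599) and Csf2 (ENSMUSG00000018916). They were measured in single T cells of wild-type C57BL/6 mice with experimental autoimmune encephalomyelitis (EAE), a disease model in which immunization provokes T cells to attack the central nervous system. Cells that were CD4+ and CD44+ but GITR- were sorted 60 days after immunization from the brain and from the spleen, and all mice were WT and immunized. Each tissue gave 1 RNA library and 1 T-cell receptor library, so no difference between the tissues has a replicate check and no p-value is given. Unimmunized mice are not part of the comparison, and how many mice were pooled is not stated in the labels.

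Csf2 encodes GM-CSF, a cytokine that activates monocytes and other myeloid cells, and its production by helper T cells is needed for EAE in the mouse. It is switched on after receptor stimulation, and IL-23 and IL-1 favour it in T-helper 17 cells. Csf1 encodes M-CSF, the growth factor on which macrophages and microglia depend, and it shares its receptor, made from Csf1r, with IL-34. The receptor for GM-CSF pairs a specific chain, made from Csf2ra, with a signalling chain, made from Csf2rb, that IL-3 and IL-5 use as well.

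After filtering, 3938 brain cells with 41018603 unique molecular identifiers (UMIs, each standing for 1 captured RNA molecule) and 7991 spleen cells with 60421011 UMIs were analysed. The median cell had 9839 UMIs in brain and 7190 UMIs in spleen. All 5 CD4 T-cell markers checked were above 10 counts per 1000000 UMIs (CPM) in both tissues. The 17 genes of a list for stress and tissue dissociation summed to a median of 13792 CPM per brain cell and 3027 CPM per spleen cell, so the libraries differed in a way that cannot be told apart from tissue. A total of 31 cell barcodes occurred in both libraries, and 17 of them were among the cells analysed in each.

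The 2 genes lie on different chromosomes, and both are read from the minus strand in RefSeq's annotation of GRCm38.p6: Csf1 at chr3:107741048-107760469 and Csf2 at chr11:54247270-54249899. The 300 bases around each annotated gene start, from 250 bases before it to 50 after it, are shown because both genes are described below in overlapping cells. Capitals mark matches to the core motif of NFAT (GGAAA) and to that of NF-kB (GGGA and TCC with 3 bases of any kind between) on either strand, and matches of both motifs overlap in Csf1.
Csf2, chr11:54249850-54250149, minus strand: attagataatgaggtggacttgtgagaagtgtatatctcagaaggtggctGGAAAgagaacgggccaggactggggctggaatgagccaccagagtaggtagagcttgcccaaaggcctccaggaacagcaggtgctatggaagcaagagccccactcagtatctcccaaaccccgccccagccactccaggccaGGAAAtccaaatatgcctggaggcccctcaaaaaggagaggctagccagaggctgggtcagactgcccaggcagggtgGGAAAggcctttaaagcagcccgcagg
Csf1, chr3:107760420-107760719, minus strand: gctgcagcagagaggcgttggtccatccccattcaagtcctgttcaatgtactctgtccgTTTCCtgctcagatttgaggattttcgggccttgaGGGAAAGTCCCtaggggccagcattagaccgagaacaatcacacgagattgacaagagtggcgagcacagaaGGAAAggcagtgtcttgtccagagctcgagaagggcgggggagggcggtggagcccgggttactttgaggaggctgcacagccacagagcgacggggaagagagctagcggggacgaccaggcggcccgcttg
Each window held 3 matches to the NFAT core, which 61.5% of 32544 RefSeq promoter windows also held. The NF-kB core matched in Csf1 alone, with 2 overlapping matches that begin 155 bases before the start, and 4.61% of the windows held it. The AP-1 core TGANTCA, which 7.79% of windows held, matched in neither. The Csf2 window is drawn at the outermost annotated start, which need not be the start these cells use, and a match is not evidence that a factor binds.

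Csf2 was the more tissue-biased of the pair. The brain library had 1079 Csf2 UMIs, a level of 26.3 CPM (95% exact Poisson interval 24.8 to 27.9), and the spleen library had 184 Csf2 UMIs, a level of 3.05 CPM (2.62 to 3.52). The level was thus 8.64 times as high in brain (95% exact interval 7.38 to 10.2). Intervals here and below cover counting error only, not the difference between animals, and UMIs of 1 cell are not independent of each other. Among all 8639 genes of at least 10 CPM in one of the tissues, 9.79% were at least 1.5-fold higher in brain and 8.67% at least 1.5-fold lower. Both colony-stimulating factor genes were in the higher group.

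The share of cells showed the same direction for Csf2. At least 1 Csf2 UMI was found in 342 brain cells, or 8.68% (95% exact Clopper-Pearson interval 7.82 to 9.61), and in 129 spleen cells, or 1.61% (1.35 to 1.92). Thinned to 5000 UMIs per cell, which left out 451 shallower brain cells and 1411 shallower spleen cells, the shares were 5.02% in brain and 1.12% in spleen. Few cells held much of the RNA in brain. The highest brain cells had 168, 99 and 37 Csf2 UMIs, and the 10 highest held 42.4% of the brain total. The highest spleen cell had 9. Without the highest 2 brain cells the brain level was 6.50 times the spleen level.

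Csf1 was also higher in brain, by a smaller factor. The brain library had 768 Csf1 UMIs, or 18.7 CPM (17.4 to 20.1), and the spleen library 501 Csf1 UMIs, or 8.29 CPM (7.58 to 9.05), a ratio of 2.26 (2.02 to 2.53). Csf1 was found in 317 brain cells, or 8.05% (7.22 to 8.94), and in 302 spleen cells, or 3.78% (3.37 to 4.22). After thinning the shares were 5.10% in brain and 2.87% in spleen. The highest cell had 25 Csf1 UMIs in brain and 10 in spleen, so no single cell weighed on Csf1 as the highest did on Csf2.

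**Figure D1:**
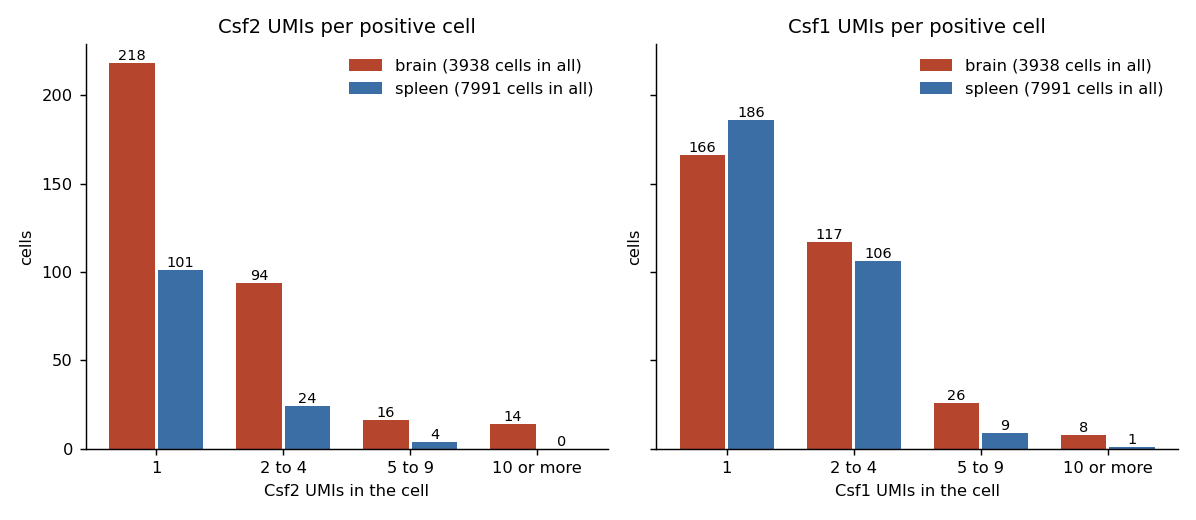
Number of cells (vertical axis) by the Csf2 UMIs (left) or Csf1 UMIs (right) they hold, in brain (red) and spleen (blue). Most positive cells held 1 UMI, and 14 brain cells and 0 spleen cells held 10 or more Csf2 UMIs.

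Detection rested on few molecules per cell, which limits every share given here. Of the Csf2-positive cells, 63.7% in brain and 78.3% in spleen held exactly 1 UMI, and of the Csf1-positive cells 52.4% in brain and 61.6% in spleen. A cell without a UMI therefore may still transcribe the gene. Free RNA can also give a UMI to a cell that does not transcribe the gene. In cells with UMIs of Ccr7 and Lef1, genes of naive and central memory T cells, Csf2 was detected in 3.82% of 733 brain cells (median 10473 UMIs) and 0.169% of 4141 spleen cells (median 7713 UMIs), and Csf1 in 2.46% of those brain cells and 1.35% of those spleen cells. These cells are not free of producers, since 12.8% of the brain ones held Ifng and single cells reached 25 Csf2 and 15 Csf1 UMIs, so their shares are no measure of free RNA. Spleen cells gated out as B cells held Csf2 in 1.22% and Csf1 in 2.44% of 164 cells, at a median of 5494 UMIs. Ifng was found in 3.05% of them, so they are no clean measure of free RNA either. Whole-tissue shares exceeded those of the cells with Ccr7 and Lef1 for both genes in both tissues, while the spleen shares lay within the wide intervals of the B-cell gate (0.148% to 4.34% for Csf2 and 0.668% to 6.13% for Csf1).

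Helper states were then set by UMIs of Il17a, the cytokine that marks T-helper 17 cells, and Ifng, the cytokine of T-helper 1 cells. In brain 262 cells held Il17a only, 103 held Il17a and Ifng, 1621 held Ifng only and 1952 held neither. In spleen 11 cells held Il17a only, 0 held both, 610 held Ifng only and 7370 held neither. Csf2 in brain was highest in cells with both cytokines, while Csf1 followed Ifng alone.

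The brain level of Csf2 was 35.3 CPM (29.1 to 42.5) in cells with Il17a only and 116 CPM (101 to 134) in cells with Il17a and Ifng. It was 27.3 CPM (25.0 to 29.8) in cells with Ifng only and 15.0 CPM (13.3 to 17.0) in cells with neither. The same order held for the share of positive cells, which was 17.6% with Il17a only, 35.9% with both, 11.3% with Ifng only and 3.89% with neither. Cells with both cytokines exceeded cells with neither 7.73-fold (6.41 to 9.31) and cells with Ifng only 4.26-fold (3.6 to 5.03). Those 103 cells were also deeper, with a median of 13947 UMIs against 9218 UMIs in cells with neither. Thinned to 5000 UMIs the positive share was 18.0% of 100 cells with both and 2.23% of 1614 cells with neither. Since 2 cells in 1 droplet would also look like a cell with both cytokines, the level was taken again in cells with exactly 1 receptor beta and 1 alpha chain. It was 163 CPM in the 41 such cells with both, of which the highest held 23 of 83 Csf2 UMIs. These were 41 of the 103 cells with both cytokines. Such receptors were found in 183 of 262 cells with Il17a only, 1204 of 1621 with Ifng only and 1309 of 1952 with neither. The part of doublets was not tested.

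Csf2 was nevertheless spread over all states. Cells with Ifng only held 45.9% of the brain's Csf2 UMIs, cells with neither 25.1%, cells with both 18.7% and cells with Il17a only 10.3%. The share of cells with both was 8.39% when cells were thinned to 5000 UMIs and 10.5% in cells with exactly 1 beta and 1 alpha chain. The contribution of cells with neither came largely from 1 cell. It held 168 of their 271 Csf2 UMIs with no Il17a, Ifng or Csf1, and without the highest 2 cells of the brain the level was 5.72 CPM in cells with neither and 21.9 CPM in cells with Ifng only. With those 2 cells left out, the order of the 4 states was the same.

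Csf1 had another order. In brain it was 33.3 CPM (30.7 to 36.0) in cells with Ifng only and 25.9 CPM (18.9 to 34.7) in cells with both, and these intervals overlap. It was 6.68 CPM (4.14 to 10.2) in cells with Il17a only and 5.50 CPM (4.47 to 6.69) in cells with neither, which also overlap. Cells with Ifng only exceeded cells with neither 6.05-fold (4.89 to 7.56) and cells with Il17a only 4.98-fold (3.23 to 8.10). They held 78.5% of the brain's Csf1 UMIs. For Csf2 the ratio of Ifng-only to Il17a-only cells lay on the other side of 1, at 0.773 (0.628 to 0.959). The cells with both cytokines and exactly 1 beta and 1 alpha chain had only 6 Csf1 UMIs, or 11.8 CPM.

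**Figure D2:**
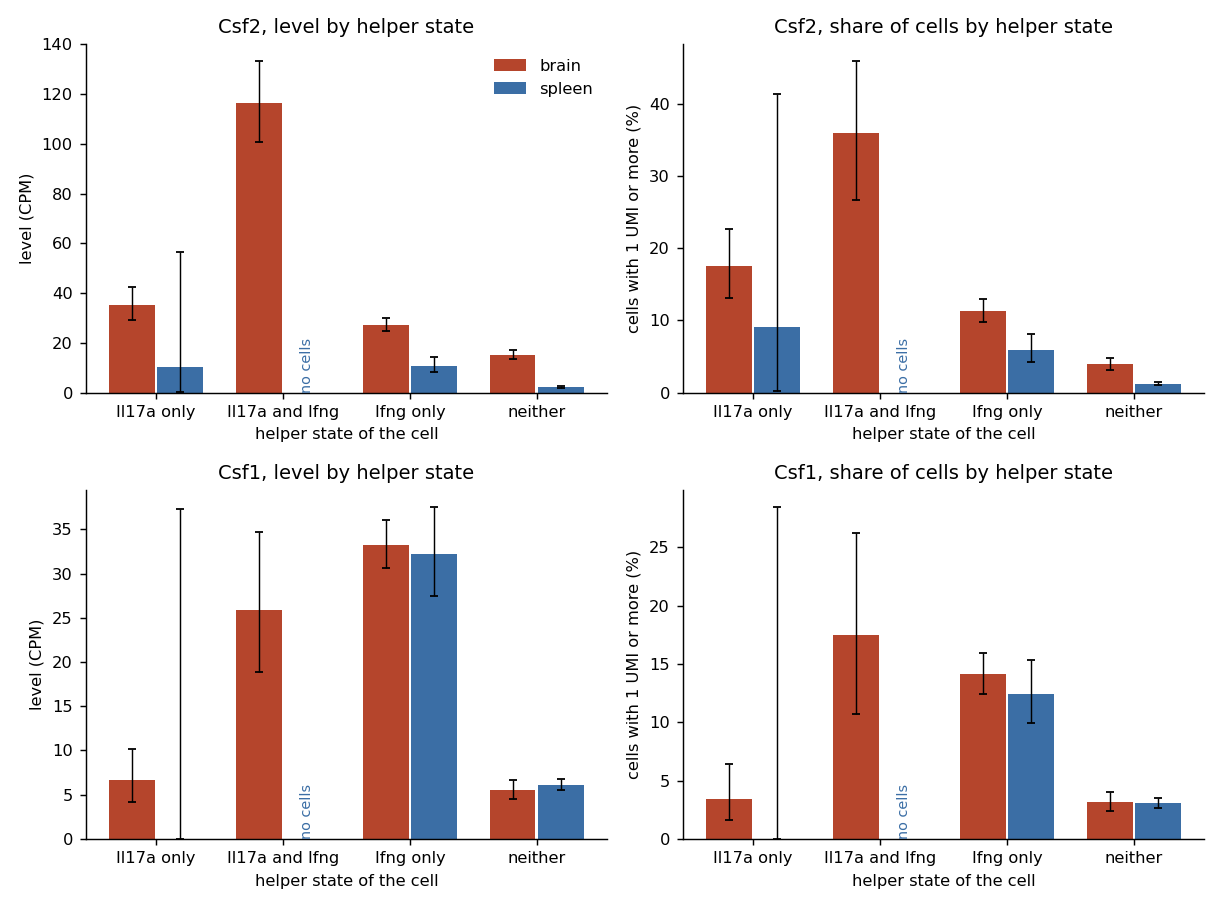
Level in CPM (left column, with 95% exact Poisson intervals) and percent of cells with a UMI (right column, with 95% exact binomial intervals) of Csf2 (top) and Csf1 (bottom) by helper state, in brain (red) and spleen (blue). Csf2 was highest in brain cells with Il17a and Ifng, and Csf1 reached 33.3 CPM in brain and 32.2 CPM in spleen in cells with Ifng only.

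Levels were also taken by the amount of the marker cytokine in a cell. Brain cells with 0 Ifng UMIs had 5.67 CPM of Csf1, cells with 1 had 25.4 CPM, cells with 2 to 4 had 28.1 CPM, cells with 5 to 19 had 38.5 CPM and cells with 20 or more had 32.6 CPM. The widest gap between neighbouring classes lay between 0 and 1 Ifng UMI. For Csf2 the levels in the same classes of Il17a UMIs were 21.2, 33.0, 49.5, 36.7 and 99.4 CPM. The highest class, of 148 cells, had a Csf2 interval of 86.2 to 114 CPM, above those of the other classes. In the classes of Ifng UMIs, Csf2 was at 18.1, 29.6, 40.0, 34.2 and 33.2 CPM. The class of 0 Ifng UMIs includes the cell with 168 Csf2 UMIs, and the class of 2 to 4 the cell with 99. In the classes of Il17a UMIs, Csf1 was at 19.4, 18.0, 9.29, 7.21 and 18.1 CPM.

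In cells with Ifng only and in cells with neither, the tissue levels of Csf1 did not separate beyond counting error, and those of Csf2 did. Csf1 in Ifng-only cells was 33.3 CPM in brain and 32.2 CPM (27.5 to 37.6) in spleen, a ratio of 1.03 (0.867 to 1.24). In cells with neither it was 5.50 CPM in brain and 6.12 CPM (5.48 to 6.80) in spleen, a ratio of 0.899 (0.711 to 1.13). These intervals leave room for a brain level up to 1.24 times the spleen level in Ifng-only cells. They also leave room for one down to 0.711 times in cells with neither. After thinning, Csf1 was found in 1.18% (0.710 to 1.83) of brain and 2.20% (1.85 to 2.60) of spleen cells with neither. These 2 intervals do not overlap, and the brain share was the lower. In Ifng-only cells the thinned shares were 9.33% (7.92 to 10.9) in brain and 10.6% (8.11 to 13.6) in spleen. Csf2 in Ifng-only cells was 27.3 CPM in brain and 10.9 CPM (8.19 to 14.1) in spleen, a ratio of 2.51 (1.90 to 3.38). In cells with neither it was 15.0 CPM in brain and 2.32 CPM (1.93 to 2.75) in spleen, a ratio of 6.50 (5.25 to 8.08). Ratios without invariant natural killer T cells are given below. Without the 2 brain cells highest in Csf2, the ratio was 2.01 (1.51 to 2.72) in Ifng-only cells and 2.47 (1.89 to 3.23) in cells with neither. In cells with Il17a only the Csf2 ratio was 3.49 (0.613 to 139), on 1 spleen UMI.

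Weighting the spleen states by their share of UMIs in brain combined the same levels into 1 ratio per gene. By construction this ratio lies between those of the 2 states. Over cells with Ifng only and cells with neither, the brain level of Csf1 was 2.34 times the spleen level before weighting and 1.01 times after it. For Csf2 the ratio was 6.99 before and 3.21 after, or 4.55 before and 2.09 after without the 2 brain cells highest in Csf2. In Ifng-only cells 7.21% of 8765 genes were at least 1.5-fold higher in brain and 13.9% lower, with a median log2 ratio of -0.18 over all of them. Csf2 was among the higher genes there and Csf1 was in neither group.

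Sets of cells defined by other genes or by the receptor placed the 2 genes further. Invariant natural killer T cells carry an alpha chain of TRAV11 joined to TRAJ18 and secrete cytokines quickly after stimulation. In brain 25.4% of 122 cells with the chain held Csf2, against 8.06% of 3089 cells with another receptor, and the level was 1.81-fold higher (1.37 to 2.34). In spleen Csf2 was found in 13.0% of 661 cells with the chain, against 0.611% of 6218 cells with another receptor, an 18.6-fold difference in level (13.4 to 26.1). The spleen cells with the chain held 111 of the 184 Csf2 UMIs of that tissue (60.3%).

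The tissue difference in Csf2 was larger outside this lineage. Without cells carrying the chain, Csf2 was 19.4 times as high in brain as in spleen (15.3 to 24.9). Among cells carrying it, the ratio was 2.21 (1.59 to 3.05). In spleen cells with neither cytokine, 80 of the 128 Csf2 UMIs were in cells with the chain. Without such cells the ratio was 15.8 (11.6 to 21.9) in cells with neither cytokine and 3.91 (2.60 to 6.18) in Ifng-only cells. Both values include the 2 brain cells highest in Csf2. Csf1 was scarce in the brain cells with the chain. It had 2 UMIs among 122 brain cells with the chain, 1.64% of them, although 84.4% of these cells held Ifng. Its level there was 0.0871 times that of brain cells with another receptor (0.0105 to 0.316), and in spleen the same comparison gave 1.46 (1.09 to 1.93).

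Cells with Foxp3, the factor that defines regulatory T cells, held Csf1, and had a lower level of Csf2 than other cells. Such cells were present although the sort was for GITR-, a receptor that regulatory T cells carry. Csf1 was found in 11.7% of 264 Foxp3-positive brain cells at 17.9 CPM, and in 9.25% of 951 such spleen cells at 17.1 CPM, where they held 23.4% of all spleen Csf1 UMIs. Relative to all other cells, Csf1 in Foxp3-positive cells was 0.953-fold in brain (0.707 to 1.26) and 2.38-fold in spleen (1.92 to 2.94). Csf2 was found in 6.06% of the Foxp3-positive brain cells (3.50 to 9.66) and in 0.315% of the Foxp3-positive spleen cells. That brain interval includes the 8.68% of all brain cells. Relative to all other cells, the level of Csf2 was 0.255-fold in brain (0.157 to 0.392) and 0.130-fold in spleen (0.0265 to 0.385). The other brain cells include the 2 highest in Csf2.

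Between brain cells with Ccr6 and brain cells with Tbx21, the share with Csf1 differed beyond counting error, and the share with Csf2 did not. Of 433 brain cells with Ccr6, a chemokine receptor of T-helper 17 cells, 14.1% held Csf2 and 3.93% held Csf1. Tbx21, which encodes the T-helper 1 factor T-bet, marked 1399 brain cells, of which 12.1% held Csf2 and 14.0% held Csf1. Il4 marked 103 brain cells, and 24.3% of them held Csf2. Cxcr5, a receptor of follicular helper cells, marked cells with Csf1 in 6.71% in brain and 6.61% in spleen, but with Csf2 in 1.83% in brain and 0.197% in spleen. Cells with Eomes, a factor of cytotoxic T cells, held each gene in 3.94% of 127 brain cells.

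**Figure D3:**
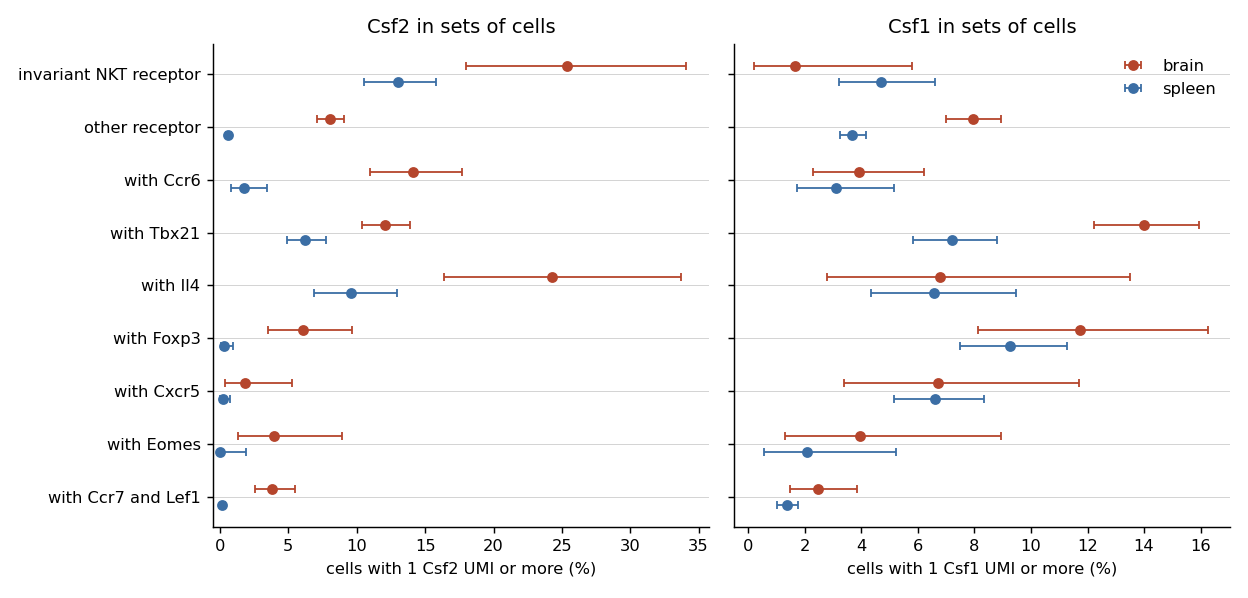
Percent of cells with a UMI of Csf2 (left) and Csf1 (right), with 95% exact binomial intervals, in sets of brain cells (red) and spleen cells (blue) named on the vertical axis; sets overlap. Csf2 stood at 25.4% in brain cells with the invariant receptor, and Csf1 at 14.0% in brain cells with Tbx21.

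The same cells held both genes more often than separate holding would give. In brain 64 cells held Csf1 and Csf2, against 33.2 expected if the genes were held independently within 10 classes of cell depth, a ratio of 1.93 (1.49 to 2.46). Within helper states 38.3 were expected, and the ratio was 1.67 (1.29 to 2.13). Most of these cells, 49 of 64, held Ifng only. In spleen 10 cells held both, against 4.73 expected, and 7.22 expected within states, a ratio of 1.39 (0.664 to 2.55).

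Overlap remained the exception even so. Cells with both genes were 18.7% of the Csf2-positive and 20.2% of the Csf1-positive brain cells, and the Pearson correlation of the 2 genes over 3938 brain cells was 0.08. Of the 64 cells with both, 73.4% held Tbx21 and 84.4% held Tnf, and 0 carried the invariant receptor. The 278 brain cells with Csf2 and no Csf1 were more mixed. Of them 48.2% held Ifng only, 26.6% neither cytokine, 15.8% Il17a only and 9.35% both. The 253 brain cells with Csf1 and no Csf2 held Ifng only in 71.1%. In spleen 81 of the 119 cells with Csf2 and no Csf1 (68.1%) carried the invariant receptor, and 30.1% of the 292 cells with Csf1 and no Csf2 held Foxp3.

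Genes of Csf2-positive brain cells were compared with those of the 3596 Csf2-negative brain cells. Of 8432 genes of at least 10 CPM in one of the sets, 3.9% were at least 1.5-fold higher in the positive cells and 3.89% lower, with a median log2 ratio of -0.02. A list of 18 cytokine receptor genes had 3 higher and 2 lower. The higher ones were those of IL-23, IL-1 and IL-2: Il23r at 102 CPM in Csf2-positive and 35.0 CPM in Csf2-negative cells, Il1r1 at 156 and 75.8 CPM, and Il2ra at 176 and 84.5 CPM. The lower ones were the IL-6 receptor genes Il6ra, at 9.71 CPM in positive and 60.3 CPM in negative cells, and Il6st, at 8.05 and 42.4 CPM. Transcription factors had 3 of 25 higher, among them Irf4 (2.03-fold) and Bhlhe40 (1.75-fold), and 2 lower, namely Foxp3 (0.425-fold) and Eomes (0.218-fold). Bhlhe40, which T cells need to make GM-CSF in mouse EAE, had a UMI in 96.5% of Csf2-positive and 67.9% of Csf2-negative cells. The median brain cell had 12473 UMIs with Csf2 alone, 11532 with both genes, 10433 with Csf1 alone and 9558 with none of the 2 genes. Shares of positive and negative cells, here and below, are therefore not matched for depth.

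Among effector genes of Csf2-positive cells, several cytokines were higher and the chemokines were divided. Helper cytokines had 7 of 13 higher and 1 lower. Il17a was 3.88-fold higher, Lta, which encodes lymphotoxin, 3.82-fold, Il4 2.44-fold and Tnf 2.03-fold. Il22 was the lower one, with 5 UMIs in Csf2-positive and 638 in Csf2-negative cells. Its share of cells, not matched for depth, was nearly the same, at 1.17% of positive and 1.20% of negative cells. Ifng itself was 1.22-fold higher and was not counted. Chemokines had 2 of 5 higher, Xcl1 and Ccl1, and 3 lower, Ccl3, Ccl4 and Ccl5. Ccl5 was at 360 CPM in positive and 651 CPM in negative cells. Ccl4 had UMIs in 7.89% of positive and 5.70% of negative cells, against the direction of its level, though these shares are not matched for depth. A single negative cell held 711 of the 2638 Ccl4 UMIs there. Ccl1 was 2.16-fold higher, and 4.49-fold without the highest cell of each set. Xcl1 was 2.25-fold higher, but 1 positive cell held 296 of its 910 UMIs, and the ratio was 1.61 without the highest cells. For Ccl3 1 negative cell held 352 of 648 UMIs, and 1.17% of positive and 1.61% of negative cells had a UMI.

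Most members of the remaining lists were not called in Csf2-positive cells. Early response genes had 2 of 9 higher, Tnfrsf9 and Egr2. The list for stress and dissociation had 1 of 15 higher, Atf3 (2.30-fold), and 1 lower, Socs3 (0.359-fold), and none of the 8 mRNA decay genes was called. Summed over its 17 genes the stress list had a median of 16094 CPM in Csf2-positive and 13570 CPM in Csf2-negative cells. With brain cells split into 4 equal groups by that sum, low to high, the level of Csf2 was 14.3, 17.4, 38.1 and 33.6 CPM, and the part of dissociation in this was not tested. The 10 early response genes summed to a median of 1971 CPM in Csf2-positive and 1433 CPM in Csf2-negative cells. In 4 groups by that second sum Csf2 was at 8.27, 10.1, 25.3 and 60.8 CPM. It was found in 5.69%, 6.50%, 9.76% and 12.8% of their cells. These levels include the 2 brain cells highest in Csf2, and the part of activation was not tested.

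Csf1-positive brain cells were compared with 3621 Csf1-negative brain cells in the same way. Of 8516 genes 4.72% were at least 1.5-fold higher and 3.03% lower, with a median log2 ratio of 0.02. Chemokines had 3 of 5 higher and none lower. Ccl1, a ligand of CCR8, had UMIs in 15.8% of Csf1-positive and 2.21% of Csf1-negative cells. Its level was 727 CPM in positive and 25.2 CPM in negative cells, 28.9-fold higher, but 1 positive cell held 2030 of its 2824 UMIs, and without the highest cell of each set the ratio was 12.1. Ccl4, which attracts T cells and monocytes, was at 174 CPM in positive and 56.9 CPM in negative cells. Its UMIs were in 19.6% of positive and 4.69% of negative cells. Xcl1 was 2.28-fold higher.

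Cytokine genes of Csf1-positive cells were led by Ifng. Helper cytokines had 4 of 12 higher, namely Ifng, Areg, Tnf and Tnfsf11, and 2 lower, Il22 and Il17f. Ifng was at 841 CPM in positive and 260 CPM in negative cells, 3.23-fold higher, and 2.29-fold higher without the highest cell of each set, since 1 cell held 969 Ifng UMIs. Areg, which encodes the tissue-repair factor amphiregulin, was 2.44-fold higher and Tnf 1.90-fold. Il17a was at 0.707-fold and was not counted as lower. The cytokine receptor list had 2 of 18 higher and 3 lower. The higher ones were Il18rap for IL-18 (206 CPM in positive and 103 CPM in negative cells) and Il2ra (1.53-fold). The lower ones were Il6ra, Il6st and Il23r. Il23r was at 25.7 CPM in Csf1-positive and 44.7 CPM in Csf1-negative cells.

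Transcription factors had 4 of 25 higher in Csf1-positive cells and 1 lower. Tbx21 was 1.91-fold, Bhlhe40 1.70-fold, Irf4 1.56-fold and Bcl6 1.55-fold higher, while Eomes was at 0.212-fold. Early response genes had 3 of 9 higher, namely Tnfrsf9 (2.94-fold), which encodes the costimulatory receptor 4-1BB, Egr2 and Nr4a2. The stress list had 1 of 15 higher, Fosb, and 1 lower, Socs3, and of 8 mRNA decay genes 1 was higher, Mir155hg, the host of miR-155. The summed stress list had a median of 15824 CPM in Csf1-positive and 13635 CPM in Csf1-negative cells. In the 4 groups by that sum, low to high, Csf1 was at 12.1, 14.0, 22.2 and 25.8 CPM, and the part of dissociation in this was likewise not tested. In the 4 groups by the early response sum Csf1 was at 10.7, 14.1, 23.6 and 25.7 CPM. Myeloid markers, 9 genes, summed to 184 CPM in Csf1-positive and 124 CPM in Csf1-negative cells, and to 172 CPM in Csf2-positive and 124 CPM in Csf2-negative cells. Cst3 alone gave 170 CPM of the sum in Csf1-positive and 116 CPM in Csf1-negative cells, and 164 CPM in Csf2-positive and 115 CPM in Csf2-negative cells, while each of the other 8 was below 5 CPM. Their part in the results was not tested.

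**Figure D4:**
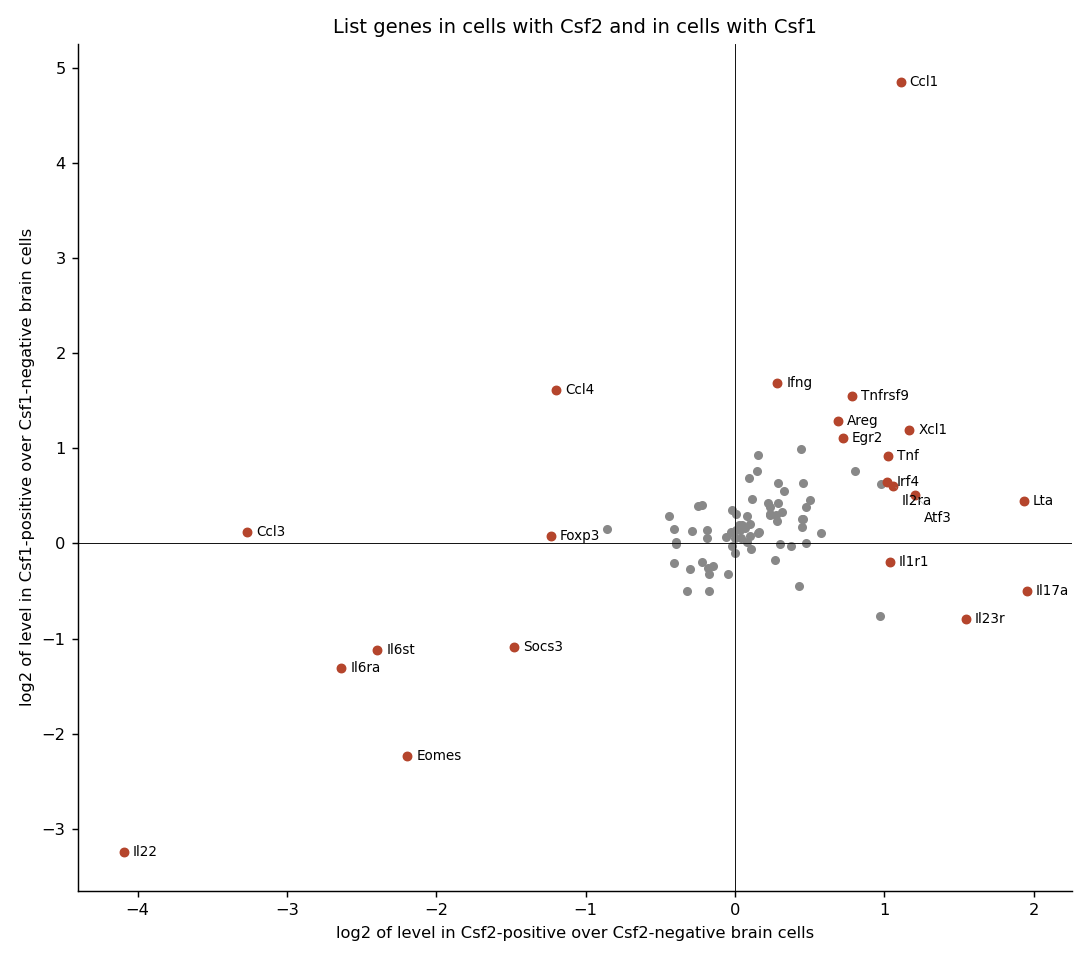
Log2 ratio of the level in Csf1-positive over Csf1-negative brain cells (vertical axis) against that in Csf2-positive over Csf2-negative brain cells (horizontal axis) for list genes of at least 10 CPM in both comparisons; labelled genes are those named by rule that differ at least 2-fold in one of them. Il17a and Il23r lie right of 0 and below 0, Ccl4 lies left of 0 and above it, and Il22, Eomes, Il6ra and Il6st lie below 0 on both axes. The 2 sets of positive cells share 64 cells.

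A direct comparison left out the 64 cells with both genes. Between the 278 cells with Csf2 alone and the 253 cells with Csf1 alone, 3.72% of 8520 genes were at least 1.5-fold higher with Csf2 and 6.62% lower. Helper cytokines had 4 of 12 higher and 2 lower. Il17a was at 757 CPM with Csf2 alone and 90.5 CPM with Csf1 alone, Il17f at 23.6 and 3.79 CPM, and Il4 at 11.9 and 2.06 CPM, while Lta was 2.86-fold higher. Ifng was at 295 CPM with Csf2 alone and 893 CPM with Csf1 alone, or 280 and 559 CPM without the highest cell of each set, and Areg was the other lower one. Chemokines had 4 of 5 lower and none higher. Ccl4 was at 9.06 CPM with Csf2 alone and 192 CPM with Csf1 alone, and Ccl1 and Ccl5 were lower as well. Ccl3 was at 0.777 CPM with Csf2 alone and 21.0 CPM with Csf1 alone, where 1 cell held 40 of its 61 UMIs, and without the highest cell of each set the levels were 0.518 and 7.23 CPM.

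Receptors and factors were counted in the same comparison, in which 3.72% of all genes were higher and 6.62% lower. Receptors had 2 of 18 higher with Csf2 alone, Il23r (7.36-fold) and Il1r1 (2.69-fold), and 4 lower, Il18rap, Il6ra, Il6st and Il10ra. Transcription factors had 1 of 24 higher and 2 lower, Tbx21 (0.526-fold) and Foxp3 (0.346-fold), and the other 21 were not called. Early response genes had 1 of 9 higher, Myc, and 3 lower, Nr4a2, Tnfrsf9 and Tnfrsf4. The stress list had 1 of 15 higher, Atf3, and mRNA decay genes had 2 of 8 lower, Zc3h12d and Mir155hg. By the levels of these named genes, not by the counts, Csf2 alone went with Il17a and Il23r, and Csf1 alone with Ifng, Tbx21 and Ccl4.

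The lists also differed between the tissues, in every case over cells of all kinds. In brain over spleen, the cytokine receptor list had 8 of 18 higher and 3 lower, and transcription factors 13 of 25 higher and 1 lower. Helper cytokines had 9 of 13 higher and 1 lower, while of all genes tested 9.79% were higher and 8.67% lower. Il1r1 was 11.5-fold and Il23r 4.96-fold higher in brain, and Bhlhe40 15.7-fold. Chemokines had 4 of 5 higher, early response genes 6 of 8, the stress list 13 of 15, and mRNA decay genes 5 of 8 higher and 1 lower. Zfp36, whose product binds the AU-rich end of the Csf2 transcript and shortens its life, had a level of 893 CPM in brain, against 147 CPM in spleen.

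Other genes of the colony-stimulating factor family were nearly silent. Csf3 and Il3 had 0 UMIs in both tissues, which allows up to 0.0731 CPM in brain and 0.0497 CPM in spleen. Il34, the other ligand of the Csf1 receptor, had 3 UMIs in brain and 9 in spleen, and Il5 had 3 in brain and 1 in spleen. The receptor gene Csf1r had 9 UMIs in brain and 4 in spleen. Csf2rb, which GM-CSF signalling requires, had 3 UMIs in brain and 1 in spleen, although Csf2ra had 5.75 CPM in brain, against 6.65 CPM in spleen. Il3ra was the single member of the 11 to reach 10 CPM, with 10.6 CPM in brain, against 6.59 CPM in spleen (1.61-fold). Csf2rb2, Csf3r and Il5ra had at most 3 UMIs in each tissue.

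Genes whose log-scaled counts went most closely with the pair were ranked by Pearson correlation over the 3938 brain cells, among genes of at least 20 CPM (5965 compared with Csf2 and 5966 with Csf1). Cells of 1 library share depth and free RNA, and correlations this weak describe the ranking only. For Csf2 they were Tmem176b (0.22), Tmem176a, Ly6g5b, Ckb, Cish, Cxcr6, S100a4 and Ramp1 (0.20). Il17a ranked 22, at 0.17. For Csf1 they were Klrc1 (0.33), Klrd1 (0.29), AA467197, Tmem163, Klrk1, Lgals3, Rgs16 and Cxcr6 (0.21). Klrc1, Klrd1 and Klrk1 encode the NK-cell receptor chains NKG2A, CD94 and NKG2D. A set of 5 genes marking NK cells and T cells without CD4 summed to 59.2 CPM in Csf1-positive and 27.0 CPM in Csf1-negative brain cells. Cd8a was at 21.9 and 7.76 CPM and Cd8b1 at 36.8 and 18.5 CPM. Trdc was at 0.515 and 0.673 CPM, and Ncr1 at 0 in both. Cd4 was at 459 and 326 CPM. The part of such cells in the Csf1 results was not tested. Ifng ranked 14 for Csf1, at 0.19, while Il17a stood at -0.02. Cxcr6, a receptor of tissue-resident T cells, was the single gene named for both.

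Receptor sequences allowed the pair to be followed in clonotypes, sets of cells with the same beta and alpha chains. Chains of both kinds were found in 3123 brain cells and 6734 spleen cells. Csf1 was higher in larger clonotypes in both tissues. In brain it was 8.87 CPM in cells alone of their kind, 18.3 CPM in clonotypes of 2 to 4 cells and 33.7 CPM in those of 5 or more. In spleen the levels in the same order were 6.06, 17.6 and 41.7 CPM. Clonotypes of 5 or more exceeded single cells 3.80-fold in brain (3.12 to 4.63) and 6.88-fold in spleen (5.17 to 9.05). Among Ifng-only cells the ratios were 2.47 in brain and 3.32 in spleen.

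Over all cells Csf2 varied less with clonotype size. In brain it was 35.0 CPM in clonotypes of 5 or more and 24.2 CPM in single cells, a ratio of 1.45 (1.24 to 1.69). In spleen the ratio was 1.30 (0.471 to 2.91), on 6 UMIs in the larger clonotypes and 144 in single cells. Of the 64 brain clonotypes of 5 or more cells, 35 had a Csf2 UMI, 23 a Csf1 UMI, 18 both and 24 none of either. Cells of 1 clonotype descend from 1 ancestor and are not independent.

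Large clonotypes of mostly Ifng-positive cells included some with almost no Csf1 or Csf2. Junction sequences (CDR3) are shown for 4 large clonotypes. The largest had almost none of either gene, and a pair with the same alpha chain had no UMI of either. The last one shown had the most spleen cells and did hold Csf1, as given below. Lower case marks bases at each end that at least 10 other clonotypes with the same V or J gene share, and capitals mark the bases between, if any. Beta chains lie on chromosome 6 and alpha chains on chromosome 14.
Largest clonotype, TRBV13-3 and TRBJ2-5: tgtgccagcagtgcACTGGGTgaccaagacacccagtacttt
Largest clonotype, TRAV13N-1 and TRAJ21: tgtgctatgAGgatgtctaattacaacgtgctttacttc
First of the pair, TRBV26 and TRBJ1-2: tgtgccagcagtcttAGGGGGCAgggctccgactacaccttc
Second of the pair, TRBV26 and TRBJ1-1: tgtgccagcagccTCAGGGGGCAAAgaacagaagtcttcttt
Both of the pair, TRAV9-1 and TRAJ22: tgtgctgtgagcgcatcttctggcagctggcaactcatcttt
Largest in spleen, TRBV26 and TRBJ1-5: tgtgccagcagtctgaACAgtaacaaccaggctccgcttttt
Largest in spleen, TRAV7-5 and TRAJ32: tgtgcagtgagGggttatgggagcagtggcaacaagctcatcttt
The largest clonotype had 67 brain cells, of which 59 held Ifng, 1 held Csf2 and 0 held Csf1, which allows a share of up to 4.48% (3 cells of the total). The pair, of 28 and 23 cells, had 51 cells together. Ifng was found in 45 of them and neither Csf1 nor Csf2 had a UMI, which allows up to 5.88% for each gene. These limits are for cells with a UMI, not for cells that express the gene.

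The clonotype largest in spleen held Csf1 in both tissues. In brain 7 of its 57 cells held Csf1 (12.3%, 5.08 to 23.7), and in spleen 9 of its 60 cells (15.0%, 7.10 to 26.6). Csf2 was found in 3 of the brain cells and 2 of the spleen cells, and Ifng in 53 of the brain cells and 35 of the spleen cells. Other large brain clonotypes differed in which gene they held. A clonotype of TRBV20 and TRAV12N-2 held Csf1 in 11 of 19 cells and Csf2 in 1. One of TRBV5 and TRAV8-1 held Csf2 in 4 of 17 cells with 28 UMIs, of which 1 cell held 23, Csf1 in 0 and Il17a in 12. One of TRBV19 and TRAV7D-2 held Csf1 in 8 and Csf2 in 5 of 14 cells, with 4 holding both.

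Among the 18 brain clonotypes of 10 or more cells, 432 cells in all, 9 had 0 Csf1 UMIs over 193 cells, and 6 had 0 UMIs of both genes. Ifng varied widely in both kinds of clonotype. The share with Ifng had a median of 57.1% (40.7% to 94.7%) in the 9 clonotypes with Csf1, and of 81.8% (9.09% to 95.7%) in the 9 without. Ccl5, a chemokine of cytotoxic and memory T cells, was then used to order them, a choice made after the values were seen. Of the 8 clonotypes with at least 1000 CPM of Ccl5 (1165 to 3209 CPM), 7 had 0 Csf1 UMIs. Of their 222 cells, 84.7% held Ifng, 3.15% held Csf1, 2.25% held Csf2 and 0 held Il17a. Of the 10 clonotypes below that level (0 to 627 CPM), 8 had Csf1. Of their 210 cells, 51.9% held Ifng, 24.3% held Csf1, 18.1% held Csf2 and 64 cells held Il17a. Over all brain cells Ccl5 did not separate the sets, at 676 CPM in Csf1-positive and 611 CPM in Csf1-negative cells, a ratio of 1.11.

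**Figure D5:**
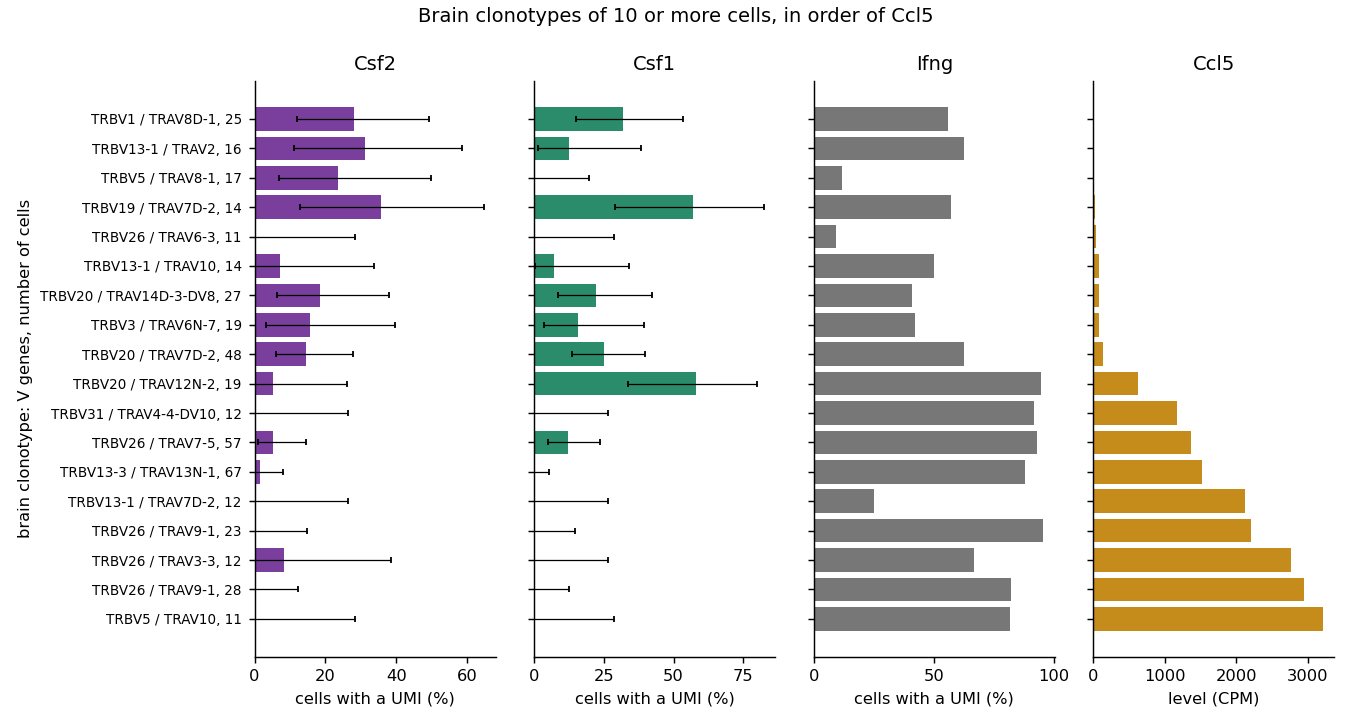
Brain clonotypes of 10 or more cells in rows, from the lowest Ccl5 level at the top to the highest at the bottom, with the percent of cells holding Csf2, Csf1 and Ifng and the level of Ccl5 in CPM; bars for Csf2 and Csf1 carry 95% exact binomial intervals. Csf1 is at 0 in 7 of the 8 rows with the most Ccl5, while Ifng is found in 84.7% of the cells of those rows.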

How the data were processed

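The authors deposited UMI count matrices and receptor contig tables from Chromium GEM-X 5' libraries of sorted CD4+ T cells, 1 RNA and 1 receptor library per tissue. Counts are raw and whole. The submitters' processing notes name Cell Ranger 9.0.0 and the builds GRCm39, GRCm38, mm39 and mm10 without saying which served the counts, so gene coordinates and promoters come from RefSeq tables of GRCm38.p6 alone. The 2 genes and all lists were chosen with earlier results of these data known.

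Of 4277 brain and 8707 spleen barcodes (18718 and 38000 cells were loaded, per the labels), 4143 brain and 8474 spleen barcodes passed 500 genes, 1000 UMIs and at most 10% mitochondrial UMIs. Barcodes with more than 1 beta or 2 alpha chains (179 brain, 315 spleen) were removed as likely doublets, and no doublet caller was run. A gate on 2 B-cell markers (4 brain, 164 spleen) or 3 myeloid markers (22 brain, 4 spleen) was added after the data were seen, as were the comparison of cells holding 1 of the genes, the Ccl5 level of 1000 CPM and clonotype gene table, the split by invariant receptor, the cells with Ccr7 and Lef1, and leaving out the highest cells.

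Levels are summed UMIs per 1000000 (CPM) with exact Poisson intervals, shares have exact Clopper-Pearson intervals and ratios exact conditional binomial intervals, all at 95%. A gene was called at 1.5-fold among genes of at least 10 CPM on the higher side. A count of 0 was given a limit of 3 counts. Named genes are the 2 members, Il17a, Ifng, up to 4 members of each list with the largest ratio in each direction, and the 8 genes with the highest correlation. Depth was matched by thinning each cell to 5000 UMIs (seed 11). Alternatives were TMM scaling by edgeR 4.0.16 (R 4.3.3), stricter cell filters, other thinning, other UMI limits and the beta chain alone. The ratio intervals were tested on simulated counts. Python 3.11.15, numpy 2.4.6, pandas 2.3.3, scipy 1.17.1 and matplotlib 3.10.9 were used. Some items are not reported here.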

Additional observations from a re-analysis of the deposited data

Results flagged for a closer look

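Of 8 contrasts compared between the tissues, 1 was flagged, with intervals wholly on opposite sides of 1 in brain and in spleen. The level of Csf1 in cells with the invariant NKT receptor relative to cells with another receptor was 0.0871 in brain (0.0105 to 0.316, on 2 Csf1 UMIs in 122 cells) and 1.46 in spleen (1.09 to 1.93, on 59 UMIs in 661 cells). With 1 library per tissue this difference was not tested.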

How the results depend on the processing

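No paired analysis was possible because each tissue has 1 RNA library, and no library could be left out for the same reason. Of 91 alternative values for 30 results, 40 stayed within counting error (gene counts within 1.5 times), 51 moved beyond that and 0 reversed; the cause of a move was not tested, except that thinning and higher UMI limits detect fewer cells by construction. The brain to spleen ratio of Csf2 was 19.4 without invariant receptors and 6.50 without the 2 brain cells highest in Csf2. Without those cells it was 2.47 in cells with neither cytokine, and over these and Ifng-only cells 4.55 before weighting and 2.09 after it. Csf2 shares were 5.02% (thinned to 5000 UMIs), 3.93% (to 3000) and 3.15% (2 or more UMIs) in brain, and 1.12%, 0.697% and 0.350% in spleen, where they were 0.587% without invariant receptors. Csf1 shares were 5.10%, 3.80% and 3.83% in brain and 2.87%, 2.39% and 1.45% in spleen.

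The share of brain Csf2 UMIs, thinned to 5000, was 14.2% in cells with Il17a only, 8.39% with both cytokines, 41.3% with Ifng only and 36.1% with neither. Without the 2 highest cells it was 13.7% with Il17a only, 24.9% with both and 12.7% with neither. With states at 2 or more UMIs it was 15.8% with both, 39.8% with Ifng only and 33.3% with neither, and with exactly 1 beta and 1 alpha chain 10.5% (both) and 30.5% (neither). For Csf1 thinning gave 6.02% (Il17a only), 2.11% (both), 72.0% (Ifng only) and 19.9% (neither), states at 2 UMIs 68.9% (Ifng only) and 24.1% (neither), and 1 beta and 1 alpha chain 82.2% (Ifng only) and 1.32% (both).

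Counts of genes called in Csf2-positive brain cells were 329 higher and 328 lower, but 109 and 93 at 50 CPM or more, 2676 and 5932 with no filter, and 679 and 708 after thinning. For Csf1-positive cells they were 402 and 258, but 132 and 72 at 50 CPM, 3070 and 5859 with no filter, and 858 and 616 thinned. Leaving out the highest cell of each gene moved the list genes called by at most 2 (Csf2 17 higher and 9 lower, Csf1 16 and 8): Areg with Csf2, and Il2ra and Tnfsf11 with Csf1, were no longer higher, and Il17a with Csf1 became lower. The Csf1 ratio of clonotypes of 5 or more to single cells was 4.88 by beta chain alone.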

Other observations

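The 22 brain cells left out by the myeloid gate held Csf1 in 5 cells and Csf2 in 3. The brain cell with the most Csf2, 168 UMIs among 10714, also had 10 UMIs of Il2 and was alone in its clonotype. The second, with 99 Csf2 UMIs, belonged to a clonotype of 5 cells and held 3 Ifng UMIs. Of the clonotypes with a Csf2-positive cell, 220 in brain and 121 in spleen, 8 were Csf2-positive in both tissues, and of those with a Csf1-positive cell, 149 in brain and 231 in spleen, 8 were as well.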
